A study of Homo sapiens with 6 samples.

Results

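The genes described here are 59 RNA modification genes outside the METTL3 complex, measured by RNA-seq in OVCAR5 cells with and without METTL3 overexpression. They were chosen by symbol from a list of METTL, NSUN, TRMT, pseudouridine synthase, editing, cap and ALKBH genes, a rule that uses no expression value. All 59 symbols were found among the 60649 gene rows of the deposited count table, and all 59 passed edgeR's filter on low counts. OVCAR5, an established human epithelial ovarian cancer line, received METTL3 or an empty vector by lentivirus and was put under puromycin selection, and 3 libraries of each kind were sequenced. The labels call the control cells parental in one place and empty-vector cells in another, and the group is named vector control here. Nothing in the labels ties the 3 libraries of a group to separate transductions, so the tests measure the spread between these libraries, which may be technical. How many cells founded each stable line is not given in the sources used here. The question was whether raised METTL3 is accompanied by a change in the RNA of the other enzymes that modify RNA.

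METTL3 is the catalytic subunit of the complex that writes N6-methyladenosine (m6A) on messenger RNA, but most chemical marks on cellular RNA are placed by other enzymes. Transfer RNA carries the densest set of marks, which shape its fold and its reading of codons, and ribosomal RNA carries pseudouridine, ribose methylation and a few methylated bases. Several of these enzymes work only with a partner protein: METTL1 with WDR4, TRMT61A with TRMT6, ADAT2 with ADAT3, and METTL5 and TRMT11 with the shared activator TRMT112.

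METTL3 itself checked the labels. In CPM, counts scaled to each library's total with TMM factors, it stood at 152, 165 and 175 with METTL3 (replicates 1, 2 and 3, the order used throughout) and at 80.6, 68.6 and 71.6 with the vector, with a log2 fold change of 1.16 (SE 0.117, edgeR adjusted p = 0.072). Here and below, the adjusted p comes from the edgeR quasi-likelihood test, by the Benjamini-Hochberg method over all genes tested, and a fold change is METTL3-overexpressing over vector control. Libraries held between 96633925 and 125463386 counts. All 5 epithelial markers were present, with EPCAM at 247 to 483 CPM and KRT8 at 3130 to 5150 CPM. CDH1, which encodes E-cadherin, was at 439, 358 and 346 CPM with METTL3 and at 201, 184 and 189 CPM with the vector (log2 fold change 0.99, edgeR adjusted p = 0.17). All 5 epithelial markers rose on replicates 2 and 3 at an adjusted p under 0.05 in edgeR (6.66% of all genes rose), with a median log2 fold change of 0.53. On 6 libraries 0 of them passed. Between the libraries numbered 1, the log2 difference was -0.143 for EPCAM, -0.233 for KRT8, -0.224 for KRT18 and -0.086 for KRT19. For CDH1 it was 1.126. Summed, the 5 were at 6910 to 7910 CPM with METTL3 and at 5590 to 8830 CPM with the vector. Of 8 markers of leukocytes, endothelium and fibroblasts, PTPRC, CD3E, CD68, COL1A2 and DCN stayed at or under 0.0709 CPM and VWF at or under 0.284 CPM. COL1A1, a collagen gene on the list as a fibroblast marker, was expressed, at 8.04 to 18.1 CPM. The 8 summed to between 25.8 and 38.3 CPM with METTL3 and between 16 and 23.8 CPM in the controls. Both libraries numbered 1 stood apart. The 10 proliferation genes summed to 2650 CPM in METTL3-overexpressing replicate 1 and to 3710 CPM in vector control replicate 1, the lowest and highest of the 6 libraries, against 3210 to 3490 CPM in the other 4. Not all shared that order. MKI67 was at 458 CPM in METTL3-overexpressing replicate 1 and 432 CPM in vector control replicate 1, MCM2 at 134 and 128 CPM and MCM5 at 260 and 223 CPM. The rest of the 10 were lower in the former. PECAM1, an endothelial marker, was at 21.4, 9.3 and 7.45 CPM with METTL3 and at 7.74, 5.72 and 4.67 CPM with the vector. It was highest in METTL3-overexpressing replicate 1 and also rose on replicates 2 and 3 (log2 fold change 0.69, edgeR adjusted p = 0.00238). The part of these markers in any difference below was not tested. The group comparison was therefore also made on replicates 2 and 3 alone, and the plot of fold changes shows both values for every member. Libraries were set aside there because of their own values, which narrows the spread within groups. The adjusted p-values of that fit may therefore be too small, and rose or fell on replicates 2 and 3 is meant with that limit.

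Levels between genes were compared in TPM, which divides counts by exonic length before scaling to the library. The 59 genes covered a wide range, from 2.72 TPM for TRDMT1, a cytosine methyltransferase of tRNA, to 709 TPM for TRMT112, the activator shared by several methyltransferases. Their median was 35.5 TPM, and 45 of them were above 20 TPM. FBL, the ribose methyltransferase of box C/D ribonucleoproteins, followed at 480 TPM and ALYREF, an export adaptor that binds 5-methylcytosine, at 426 TPM. TRMT112 was above both in every library, whereas FBL and ALYREF overlapped, as did NSUN2, FTSJ3 and NAT10, next in order at 159, 141 and 134 TPM. At the low end TRDMT1 was below PUS10 (4.04 TPM) in every library, and TRMT10A (6.14 TPM), NSUN3 (6.68 TPM) and ADAT3 (7.46 TPM) overlapped. The counts behind these levels ran from 242 to 27507 per gene and library, so counting error was small for every member. Within a group the median coefficient of variation of CPM was 9.36% over the members, against 17% over all 22038 genes tested. The latter include genes with far fewer counts, where counting error adds to the spread. The comparison was not matched for level and does not show that the members were unusually stable.

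**Figure D1:**
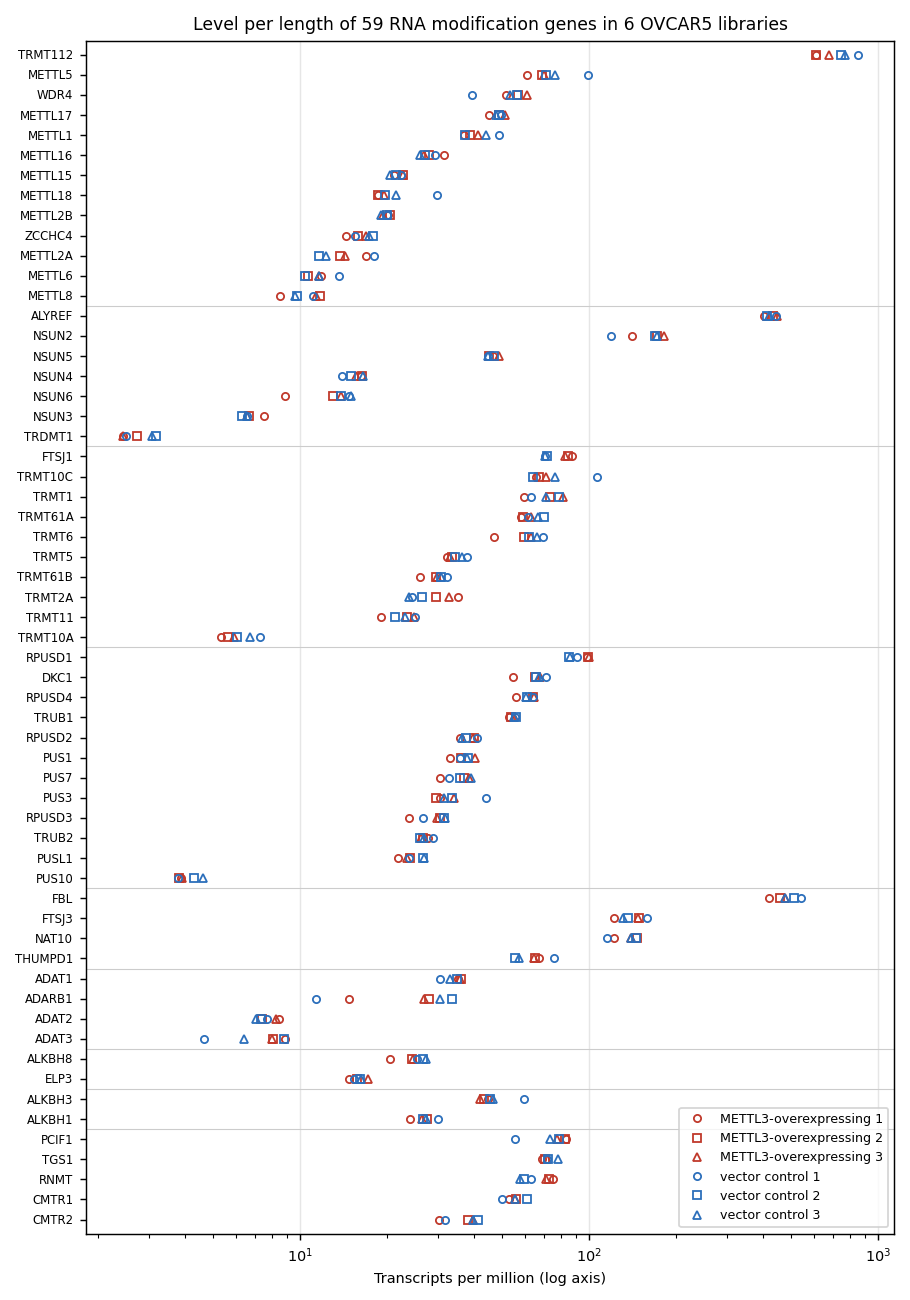
Level of each of the 59 genes in the 6 libraries, in TPM on a log axis, grouped by role from METTL-family genes at the top to cap enzymes at the bottom. Red marks METTL3-overexpressing and blue vector control libraries, and the symbol gives the replicate number. Levels differ far more between genes, from 2.72 TPM for TRDMT1 to 709 TPM for TRMT112, than between libraries of a gene.

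No member passed the test between METTL3-overexpressing and vector control cells on all 6 libraries. At an adjusted p under 0.05 the edgeR quasi-likelihood test called 0 of 59 members and 0 of 22038 genes (0% of all genes), and DESeq2 called 0 members and 1.27% of genes. The smallest adjusted p of a member was 0.546 in edgeR. Without vector control replicate 1, 0 members and 1.62% of genes passed. At an unadjusted p under 0.05 there were 2 members against 8.3% of all genes, TRMT2A on the higher side (4.4% of all genes) and TRMT112 on the lower side (3.91%). The count of 2 became 8 (16.2% of all genes) without vector control replicate 1, 6 (6.93%) without vector control replicate 2, and 1 without any one of the other 4 libraries (4.15% to 6.9%). CPM of the groups did not overlap in 15 members, 4 higher with METTL3 (8.47% of all genes) and 11 lower (8.93% of all genes). Those shares among the members were 6.78% and 18.6%. In bulk RNA, fewer cells with a transcript and less of it per cell cannot be told apart.

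The fold changes were small. They lay between 0.761 and 1.25 on the linear scale, 40 of 59 were under 0.2 in size on the log2 scale, and standard errors had a median of 0.134. The 95% interval excluded a change of 2-fold in either direction for 58 of the 59, ADARB1 being the exception. In sign, 13 members were higher and 46 lower with METTL3, with a median log2 fold change of -0.089 beside -0.018 over all genes. On replicates 2 and 3 alone, 34 were higher and 25 lower, with a median of 0.01 beside -0.003 over all genes. The median was also -0.003 without METTL3-overexpressing replicate 1 alone and -0.14 without METTL3-overexpressing replicate 3.

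**Figure D2:**
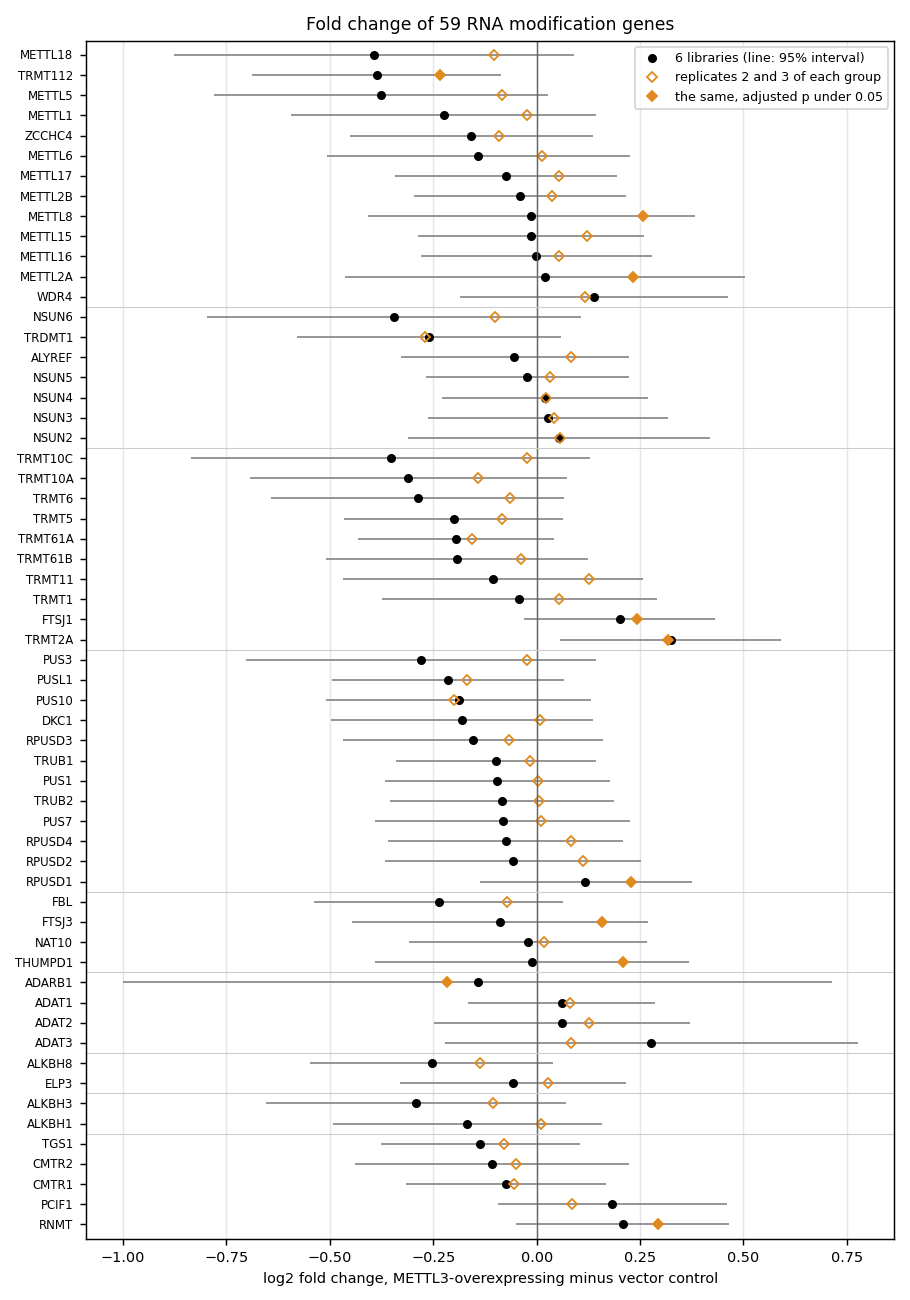
Log2 fold change (METTL3-overexpressing minus vector control) of the 59 genes, grouped by role and ordered by size within a role. Black points with 95% intervals come from all 6 libraries, orange diamonds from replicates 2 and 3 of each group, filled where the adjusted p of edgeR was under 0.05. The interval of 2 genes, TRMT112 and TRMT2A, leaves out 0, and 10 diamonds are filled.

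The lower values lay mainly between the libraries numbered 1. METTL3-overexpressing replicate 1 was the lowest of the 6 libraries for 39 members (66.1%, against 23.6% of all genes), and vector control replicate 1 was the highest for 34 (57.6%, against 30.1%). Both held for 25 members, or 42.4%, against 10.6% of all genes. Between the libraries numbered 1, 49 of 59 members (83.1%, against 50.1% of all genes) were lower with METTL3, and the median log2 difference was -0.299. Between those numbered 2, 28 were lower (47.5%, against 50.8% of all genes) and the median was 0.01. Between those numbered 3, 26 were lower (44.1%, against 50.6%) and the median was 0.006. The summed CPM of the proliferation genes was also lowest and highest in these same libraries, though MKI67, MCM2 and MCM5 went the other way between them. The part of these genes in the pattern was not tested.

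**Figure D3:**
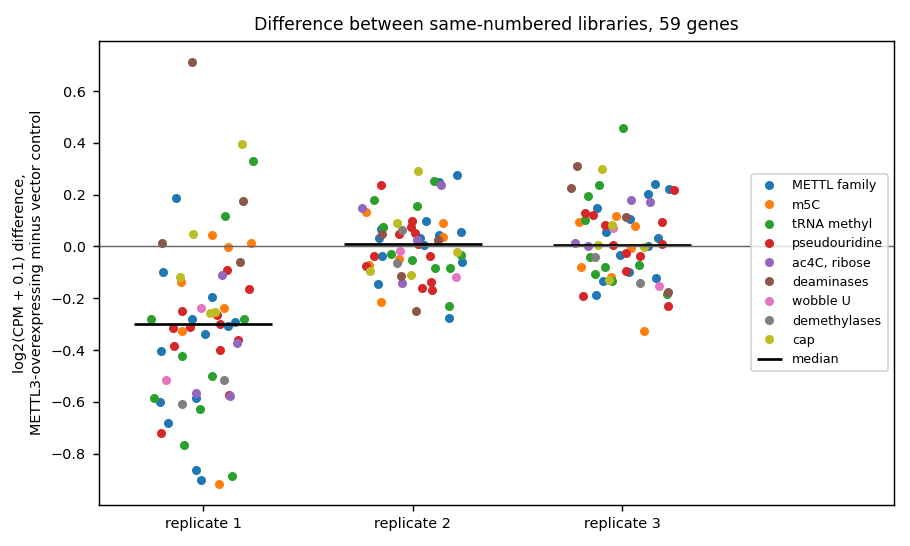
Difference between same-numbered libraries of the 2 groups, as log2(CPM + 0.1) in the METTL3-overexpressing library minus that in the vector control, for each of the 59 genes. Colour gives the role and the black bar the median, which is -0.299 for replicate 1, 0.01 for replicate 2 and 0.006 for replicate 3.

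With the group held, the replicate number itself was tested on all 6 libraries. No member passed at an adjusted p under 0.05, while 0.0318% of all genes did, and 3 members against 13.1% of genes had an unadjusted p under 0.05. Those 3 were ADARB1, NSUN2 and METTL2A. Leaving out 1 library leaves its replicate number with a single library. The test then cannot separate that library's own difference from the replicate number. The counts without 1 library are therefore not read as an effect of the replicate number. The count depended on which libraries numbered 1 were kept: leaving out METTL3-overexpressing replicate 1 gave 33 members (40.6% of all genes), leaving out vector control replicate 1 gave 24 (29.7%), and it was 1 (2.42% to 3.64%) without any one of the other 4.

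Among the METTL-family genes and their partners, 2 of 13 were higher and 11 lower with METTL3, with a median log2 fold change of -0.075. TRMT112 (chromosome 11, 64316460 to 64317559, minus strand, GRCh38) had the lower values in every METTL3-overexpressing library, at 144, 151 and 168 CPM against 232, 183 and 192 CPM in the controls. The groups did not overlap, and vector control replicate 1 was the highest library. Its log2 fold change was -0.39 (SE 0.132, unadjusted p = 0.0178, edgeR adjusted p = 0.546). It fell on replicates 2 and 3 by 0.233 on the log2 scale (edgeR adjusted p = 0.0171). Exons of ESRRA on the other strand cover 25.8% of its exonic bases, and the strand setting of the counting is not given in the sources used here, so reads of the 2 genes can be told apart there only if strand was used. A further 11.9% of its 50-base words recur in the pseudogene TRMT112P6.

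METTL5 and TRMT11, which TRMT112 activates, were read beside it, followed by ZCCHC4. METTL5, which with TRMT112 methylates an adenosine of the small-subunit ribosomal RNA, was at 37.7, 44.1 and 45.4 CPM with METTL3 and at 70.4, 45.3 and 49.5 CPM in the controls. Vector control replicate 1 stood far above the rest, and the groups overlapped at 45.3 and 45.4 CPM. SSB on the other strand covers 20% of its exonic bases. Its log2 fold change was -0.38 (SE 0.177, edgeR adjusted p = 0.616) on 6 libraries and -0.083 on replicates 2 and 3. The TPM ratio of METTL5 to TRMT112 stayed between 0.0952 and 0.117 over the 6 libraries. TRMT11, which methylates a guanosine of tRNA with TRMT112, was at 23.5, 30.1 and 32 CPM against 35.3, 27.0 and 29.8 CPM. These ranges overlapped, and the TPM ratio of TRMT11 to TRMT112 was 0.0312, 0.0384 and 0.0366 with METTL3 and 0.0293, 0.0284 and 0.0299 in the controls, higher in each METTL3-overexpressing library. ZCCHC4, the m6A methyltransferase of the large-subunit ribosomal RNA, was at 13.6, 15.6 and 16.7 CPM against 16.8, 17.3 and 17.1 CPM. Its groups were apart by a narrow gap, with a log2 fold change of -0.16 (SE 0.129, edgeR adjusted p = 0.727) on 6 libraries, -0.058 without METTL3-overexpressing replicate 1 and -0.091 on replicates 2 and 3.

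METTL1 and WDR4 form the tRNA 7-methylguanosine methyltransferase. METTL1, the catalytic subunit, was at 15.5, 16.9 and 18.2 CPM with METTL3 and at 23.6, 16.1 and 19.4 CPM in the controls, and WDR4 was at 30.4, 35.0 and 38.0 CPM against 26.7, 34.2 and 32.9 CPM. Neither pair of groups was separate. The log2 fold change of METTL1 was -0.23 on 6 libraries, -0.077 without vector control replicate 1, -0.15 without METTL3-overexpressing replicate 1 and -0.023 on replicates 2 and 3. That of WDR4 was 0.14 on 6 libraries and 0.12 on replicates 2 and 3, and went from 0.036 without vector control replicate 1 to 0.24 without METTL3-overexpressing replicate 1. In vector control replicate 1 METTL1 was at its highest and WDR4 at its lowest, so the TPM ratio of METTL1 to WDR4 was 1.24 there and between 0.663 and 0.83 in the other 5 libraries. METTL18, which methylates a histidine of a ribosomal protein rather than RNA, had the largest fold change to the lower side, -0.39 (SE 0.211, edgeR adjusted p = 0.637). It was at 6.32, 6.58 and 6.97 CPM with METTL3 and at 11.6, 6.88 and 7.66 CPM in the controls. Vector control replicate 1 set that size, since the log2 fold change was -0.10 on replicates 2 and 3.

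METTL2A and METTL2B, near-identical genes on different chromosomes, encode the 3-methylcytosine methyltransferases of tRNA. METTL2A lies on chromosome 17 (62423875 to 62453385, plus strand) and METTL2B on chromosome 7 (128476729 to 128506602, plus strand). A stretch of both coding sequences (bases 775 to 864 from the start codon, plus sense, GENCODE release 44 on GRCh38) is shown. It was chosen as a 90-base window with the most differences, whereas the longest run without a difference was 331 bases. Capitals mark the 4 positions at which the stretches differ:
METTL2A: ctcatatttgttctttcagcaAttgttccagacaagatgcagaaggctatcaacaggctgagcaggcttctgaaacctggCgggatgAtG
METTL2B: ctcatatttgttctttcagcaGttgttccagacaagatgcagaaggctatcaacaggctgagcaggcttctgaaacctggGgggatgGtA
The coding sequences, 1134 bases each, differed at 15 bases (98.7% identity), and 55.9% of all 50-base windows along them were the same. Of the 50-base words in the longest transcript of METTL2A, 28.2% occur in transcripts of METTL2B, so the split of reads between the genes is uncertain. METTL2A was at 23.4, 19.6 and 20.8 CPM with METTL3 and at 28.6, 16.5 and 17.8 CPM in the controls. It rose by 0.23 on the log2 scale in replicates 2 and 3 (edgeR adjusted p = 0.0481) and was lower with METTL3 between the libraries numbered 1, by a log2 difference of -0.29. METTL2B was at 29.3, 31.0 and 29.7 CPM against 33.5, 30.0 and 29.0 CPM and passed neither test.

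METTL8, which makes the same mark on mitochondrial tRNA, was at 21.5, 30.8 and 30.2 CPM with METTL3 and at 32.3, 25.4 and 25.5 CPM in the controls. METTL3-overexpressing replicate 1 was the lowest and vector control replicate 1 the highest, and the remaining 4 libraries were separate by group. METTL8 rose on replicates 2 and 3 (log2 fold change 0.26, edgeR adjusted p = 0.0115), while its value over 6 libraries was -0.013 and turned to 0.007 with RLE size factors. The other 4 genes of this group, METTL6, METTL15, METTL16 and METTL17, which act on tRNA, mitochondrial ribosomes and a spliceosomal RNA, had log2 fold changes from -0.14 to -0.001 and adjusted p-values of at least 0.806 in edgeR.

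Of the 7 genes of the cytosine-5 methylation group, 3 were higher and 4 lower, with a median log2 fold change of -0.023, and none passed on 6 libraries or on replicates 2 and 3. TRDMT1, the tRNA methyltransferase also known as DNMT2, was at 8.11, 9.43 and 8.56 CPM with METTL3 and at 9.57, 11.0 and 10.8 CPM in the controls. Its groups did not overlap, and the log2 fold change was -0.26 (SE 0.14, edgeR adjusted p = 0.637) on 6 libraries and -0.27 on replicates 2 and 3 (edgeR adjusted p = 0.0556, and 0.0156 with GC and length trends removed). NSUN6, which methylates tRNA and messenger RNA, was at 6.66, 10.2 and 10.8 CPM against 12.7, 10.7 and 11.7 CPM. METTL3-overexpressing replicate 1 was far below the rest, and the log2 fold change of -0.35 (SE 0.198) on 6 libraries was -0.10 on replicates 2 and 3.

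NSUN2, the main tRNA and messenger RNA 5-methylcytosine methyltransferase, was at 168, 213 and 227 CPM with METTL3 and at 163, 208 and 215 CPM in the controls. Both libraries numbered 1 were the lowest of their group (replicate-number test, edgeR unadjusted p = 0.0356, edgeR adjusted p = 0.334). The difference between the groups was 0.054 on the log2 scale (SE 0.16). ALYREF was at 138, 153 and 160 CPM against 173, 146 and 150 CPM, and NSUN3, of mitochondrial methionine tRNA, was at 14.3, 13.3 and 13.1 CPM against 14.3, 12.5 and 13.2 CPM. Their groups overlapped. NSUN4 and NSUN5, which act on ribosomal RNA of mitochondria and cytosol, had log2 fold changes of 0.02 and -0.023. For NSUN5, 42.3% of 50-base words occur in other genes, mainly in the pseudogene NSUN5P2, so its level is uncertain.

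Among the 10 tRNA methyltransferases, 2 were higher and 4 lower without overlap between the groups (8.47% and 8.93% of all genes), and the median log2 fold change was -0.19 (2 higher, 8 lower in sign). TRMT2A (chromosome 22, 20111875 to 20117392, minus strand), which makes 5-methyluridine in the T loop, was at 30.0, 26.2 and 29.2 CPM with METTL3 and at 23.9, 23.1 and 21.3 CPM in the controls. All METTL3-overexpressing libraries were above all controls. The log2 fold change of 0.32 (SE 0.117, unadjusted p = 0.0232, edgeR adjusted p = 0.561) was 0.32 on replicates 2 and 3 too, where TRMT2A rose (edgeR adjusted p = 0.00845). Exons of neighbouring genes, DGCR8 and RANBP1, overlap 10% of its exonic bases on the other strand. FTSJ1, a ribose methyltransferase of the anticodon loop, was at 54.3, 54.4 and 53.7 CPM against 50, 45.7 and 45.6 CPM. Its groups were apart with little spread among the METTL3-overexpressing libraries, and the log2 fold change was 0.20 (SE 0.101, edgeR adjusted p = 0.629). FTSJ1 rose on replicates 2 and 3 (log2 fold change 0.24, edgeR adjusted p = 0.00791).

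On the lower side, the 2 subunits of the tRNA 1-methyladenosine methyltransferase were read together. TRMT61A, the catalytic subunit, was at 40.4, 42.5 and 45.8 CPM with METTL3 and at 49.1, 49.8 and 48.4 CPM in the controls, and its groups did not overlap (log2 fold change -0.20, SE 0.104, edgeR adjusted p = 0.637, and -0.16 on replicates 2 and 3). TRMT6, which holds the tRNA, was at 38.2, 50.4 and 53.9 CPM against 65.1, 52.3 and 56.6 CPM, with a log2 fold change of -0.29 (SE 0.155) on 6 libraries and -0.065 on replicates 2 and 3. The TPM of TRMT6 relative to TRMT61A was 0.804 in METTL3-overexpressing replicate 1, 1.13 in vector control replicate 1 and between 0.893 and 1.01 in the other 4 libraries.

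TRMT61B, the mitochondrial relative, was at 11.6, 13.7 and 13.9 CPM against 16.5, 14.1 and 14.3 CPM. TRMT5, which methylates the guanosine next to the anticodon, was at 38.4, 41.4 and 41.1 CPM against 51.5, 42.3 and 45.2 CPM, and TRMT10A, a guanosine methyltransferase of cytosolic tRNA, was at 5.06, 5.54 and 5.86 CPM against 7.87, 5.88 and 6.66 CPM. In each of the 3 the groups were apart by a narrow gap, with vector control replicate 1 high. Their log2 fold changes were -0.19 for TRMT61B, -0.20 for TRMT5 and -0.31 for TRMT10A on 6 libraries, and -0.039, -0.085 and -0.14 on replicates 2 and 3. Without vector control replicate 1 they were -0.12, -0.12 and -0.19, and without METTL3-overexpressing replicate 1 that of TRMT61B was -0.092. SPDYA covers 22.8% of the exonic bases of TRMT61B on the other strand, so the strand limit named for TRMT112 holds for it too. TRMT10C, a subunit of mitochondrial RNase P, was at 26.6, 28.3 and 30.1 CPM against 49.3, 26.8 and 32.5 CPM, so its log2 fold change of -0.35 (SE 0.211) rested on vector control replicate 1 and was -0.024 on replicates 2 and 3. TRMT1 had a log2 fold change of -0.042 (SE 0.145).

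Of 12 pseudouridine synthases, 1 was higher and 11 were lower with METTL3, with a median log2 fold change of -0.096. All 12 were lower between the libraries numbered 1, where the median log2 difference was -0.31, against 6 of 12 for number 2 and 5 of 12 for number 3. Over all genes, 50.1%, 50.8% and 50.6% were lower for numbers 1, 2 and 3. PUS10, which acts on tRNA, was at 6.39, 6.53 and 6.79 CPM with METTL3 and at 7.18, 7.3 and 7.98 CPM in the controls. PUSL1, a mitochondrial synthase, was at 12.5, 14.3 and 14.0 CPM against 15.5, 15.7 and 16.1 CPM. In both genes the groups did not overlap and vector control replicate 1 was the lowest control. Their log2 fold changes were -0.19 and -0.21 on 6 libraries (edgeR adjusted p = 0.701 and 0.648), and without 1 library the value of PUS10 was nearest to 0 without vector control replicate 3, at -0.11, and that of PUSL1 without METTL3-overexpressing replicate 1, at -0.14. The values were -0.20 and -0.17 on replicates 2 and 3 (edgeR adjusted p = 0.212 and 0.161). RPUSD1 was at 58.6, 61.7 and 62.7 CPM against 62.4, 52.3 and 53.9 CPM. It rose on replicates 2 and 3 (log2 fold change 0.23, edgeR adjusted p = 0.012) and had a log2 difference of -0.091 between the libraries numbered 1. DKC1, the synthase of H/ACA ribonucleoproteins and of telomerase, had a log2 fold change of -0.18 (SE 0.138) on 6 libraries and 0.008 on replicates 2 and 3. The remaining 8 synthases, PUS1, PUS3, PUS7, TRUB1, TRUB2, RPUSD2, RPUSD3 and RPUSD4, had log2 fold changes between -0.28 and -0.057, and none passed either test.

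The 4 genes of acetylation and nucleolar ribose methylation had a median log2 fold change of -0.055 on 6 libraries, and 2 of them rose on replicates 2 and 3, where 6.66% of all genes rose. THUMPD1, the adaptor that brings the cytidine acetyltransferase NAT10 to tRNA, was at 94.3, 94.6 and 95.2 CPM with METTL3 and at 122, 80.1 and 84.0 CPM in the controls. The METTL3-overexpressing libraries were nearly equal and lay between vector control replicate 1 and the other controls. THUMPD1 rose on replicates 2 and 3 (log2 fold change 0.21, edgeR adjusted p = 0.0175), and its value of -0.011 over 6 libraries turned to 0.009 with RLE size factors. NAT10 was at 137, 172 and 166 CPM against 149, 169 and 165 CPM and overlapped fully. The TPM ratio of NAT10 to THUMPD1 was 1.51 in vector control replicate 1 and 2.62 and 2.44 in the other controls, with the METTL3-overexpressing libraries between them at 1.81, 2.26 and 2.17.

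FTSJ3, a ribose methyltransferase needed for ribosome assembly, was at 137, 175 and 174 CPM with METTL3 and at 205, 157 and 155 CPM in the controls. Like METTL8, it had its lowest value in METTL3-overexpressing replicate 1 and its highest in vector control replicate 1, and it rose on replicates 2 and 3 (log2 fold change 0.16, edgeR adjusted p = 0.0489). FTSJ3 shares 12.6% of its exonic bases with PSMC5 on the other strand. FBL was at 193, 221 and 231 CPM against 286, 243 and 230 CPM, with overlapping groups and a log2 fold change of -0.24 (SE 0.131) on 6 libraries and -0.072 on replicates 2 and 3.

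**Figure D4:**
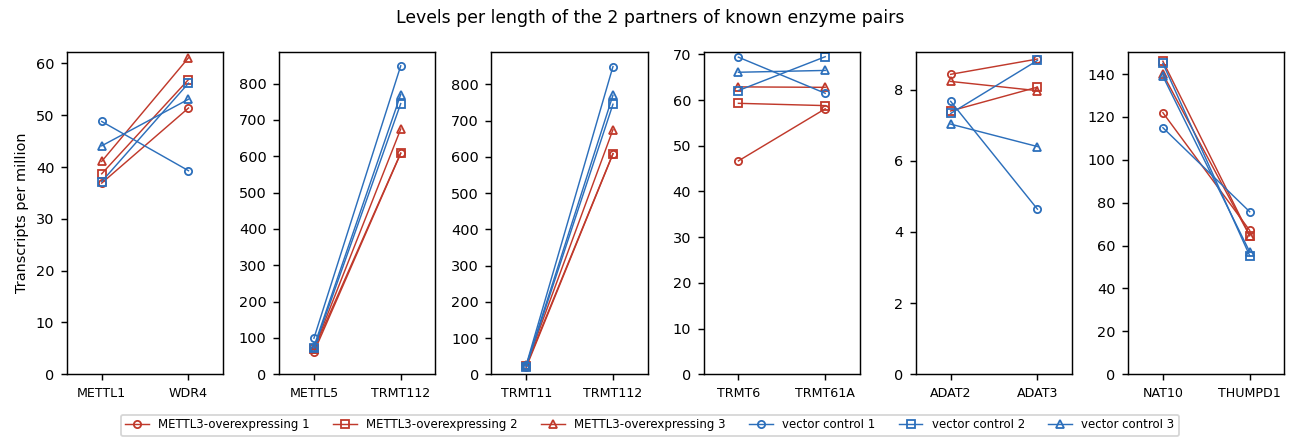
TPM of the 2 members of 6 known enzyme pairs, with each line joining the partners in 1 library (red, METTL3-overexpressing; blue, vector control; symbol, replicate number). TRMT112 lies far above METTL5 and TRMT11, and the METTL1 and WDR4 line slopes the other way in vector control replicate 1, where the ratio is 1.24.

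The 4 deaminases had a median log2 fold change of 0.061 (3 higher, 1 lower). ADARB1, which edits adenosine to inosine in double-stranded RNA, varied more between replicate numbers than between the groups. It was at 32.6, 64.5 and 62.9 CPM with METTL3 and at 28.9, 76.7 and 71.1 CPM in the controls. Both libraries numbered 1 were near the same low level, and the other 4 lay between 62.9 and 76.7 CPM. The replicate-number test gave an unadjusted p of 0.000375 and an edgeR adjusted p of 0.099. Its standard error of 0.375 was the largest of the 59 genes, with a 95% interval from -1.0 to 0.71 around a log2 fold change of -0.14. On replicates 2 and 3 it fell by 0.216 on the log2 scale (edgeR adjusted p = 0.0195).

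ADAT2 and ADAT3 form the deaminase that makes inosine at the wobble position of tRNA. ADAT2, the catalytic subunit, was at 13.1, 12.0 and 13.4 CPM with METTL3 and at 13.7, 11.8 and 11.5 CPM in the controls. ADAT3 was at 4.25, 4.02 and 4 CPM against 2.55, 4.35 and 3.21 CPM, with a log2 fold change of 0.28 (SE 0.218, edgeR adjusted p = 0.719). The groups overlapped for both. The value of ADAT3 was 0.11 without vector control replicate 1, 0.53 without vector control replicate 2 and 0.083 on replicates 2 and 3. For ADAT2 the log2 fold change was 0.062 on 6 libraries and 0.13 on replicates 2 and 3. ADAT3 shares 34.8% of its exonic bases on the same strand with SCAMP4, so its counts are uncertain. ADAT1, which deaminates alanine tRNA, had the smallest standard error of the 59 genes, 0.0993, with a log2 fold change of 0.06.

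Both wobble uridine enzymes were lower in sign. ALKBH8, which methylates and hydroxylates wobble uridine and also binds TRMT112, was at 19.8, 24.6 and 25 CPM with METTL3 and at 28.3, 26.7 and 27.8 CPM in the controls. Its groups did not overlap, and its log2 fold change was -0.25 (SE 0.129, edgeR adjusted p = 0.631) on 6 libraries, -0.13 without METTL3-overexpressing replicate 1 and -0.14 on replicates 2 and 3. ELP3, the catalytic subunit of Elongator, had a log2 fold change of -0.057 (SE 0.12). Of the RNA demethylases, ALKBH3, which acts on 1-methyladenosine and 3-methylcytosine, was at 22.9, 23.1 and 22.7 CPM against 35.0, 24.1 and 25.1 CPM. The METTL3-overexpressing libraries were nearly equal and below every control, with vector control replicate 1 far above the rest, and the log2 fold change of -0.29 (SE 0.159) was -0.10 on replicates 2 and 3. ALKBH1 had a log2 fold change of -0.17 (SE 0.142).

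Among 5 cap enzymes, 2 were higher without overlap between the groups, as were 8.47% of all genes. RNMT, the cap guanine methyltransferase, was at 113, 113 and 112 CPM with METTL3 and at 109, 92.6 and 91.2 CPM in the controls. Every METTL3-overexpressing library was above every control. The log2 fold change was 0.21 (SE 0.113, edgeR adjusted p = 0.639) on 6 libraries, and RNMT rose on replicates 2 and 3 by 0.29 (SE 0.0518, edgeR adjusted p = 0.00128), the smallest adjusted p of the 59 genes there. PCIF1, which methylates the cap-adjacent adenosine, was at 57.0, 58.8 and 55.4 CPM against 43.3, 55.2 and 52.3 CPM. Its groups were apart by a narrow gap, and the log2 fold change of 0.18 (SE 0.121) was 0.087 without vector control replicate 1 and 0.086 on replicates 2 and 3 (edgeR adjusted p = 0.39). CMTR1 and CMTR2, the cap ribose methyltransferases, and TGS1, which makes the trimethylated cap of small nuclear RNA, had log2 fold changes from -0.14 to -0.074 and were not called.

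On replicates 2 and 3 alone, 10 of 59 members passed an adjusted p under 0.05 in edgeR, against 15.2% of all genes. In that fit 8 rose (RNMT, FTSJ1, TRMT2A, METTL8, RPUSD1, THUMPD1, METTL2A and FTSJ3; 6.66% of all genes rose) and 2 fell (TRMT112 and ADARB1; 8.59% of all genes fell). The same 10 passed with DESeq2 (14.7% of all genes) and with GC and length trends removed, where TRDMT1 was added to the lower side (20.7% of all genes). Between the libraries numbered 1, 4 of the 10 differed in the same direction as in that fit and 6 in the opposite one. No share over all genes is given for this, so it is not read as a result about the members. TRMT112, TRMT2A, FTSJ1 and RNMT were the 4. They were apart between the groups over all 6 libraries, which include the libraries of that fit, so this is no separate support. In the fit on replicates 2 and 3, the largest change of the 10 was 0.32 on the log2 scale, for TRMT2A.

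The METTL3 complex itself and the m6A demethylases, 10 genes with METTL3 included, had 5 higher and 5 lower and a median log2 fold change of 0.019. At an unadjusted p under 0.05 in edgeR, METTL3 was higher (4.4% of all genes) and 1 other gene, ZC3H13, was lower (3.91% of all genes). ZC3H13 was at 106, 120 and 118 CPM with METTL3 and at 157, 135 and 142 CPM in the controls. On replicates 2 and 3, METTL3 and RBM15 rose (6.66% of all genes) and ZC3H13 fell (8.59%). RBM15 was at 24.8, 23.6 and 23.8 CPM against 20.9, 19.9 and 20.6 CPM, without overlap (edgeR adjusted p = 0.0352 on replicates 2 and 3). A wider list of 56 other RNA modification genes gave 14 higher and 42 lower, with a median of -0.12 on 6 libraries and 0.005 on replicates 2 and 3. Of these 56, 1 was higher (4.4% of all genes) and 1 lower (3.91%) at an unadjusted p under 0.05 in edgeR on 6 libraries. In the fit on replicates 2 and 3 there were 3 that rose and 1 that fell, against 6.66% and 8.59% of all genes. The higher one on 6 libraries was DUS1L, at 111, 112 and 118 CPM against 98.9, 94.5 and 97.2 CPM. DUS1L also rose on replicates 2 and 3 (edgeR adjusted p = 0.00434). The lower one on 6 libraries was NHP2, which binds DKC1 in H/ACA ribonucleoproteins, at 48.3, 55.5 and 56.3 CPM against 69.5, 62.8 and 60.6 CPM. NHP2 was not called on replicates 2 and 3 (edgeR adjusted p = 0.101).

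The promoters of the members were compared by their letters. RefSeq windows of 300 bases around the start (GRCh38.p14) were found for 50 of the 59 genes, with METTL1, METTL17, NSUN2, TRMT2A, PUS1, PUSL1, ELP3, RNMT and TGS1 missing. The ETS core CCGGAA, searched on both strands, was present in 29 of the 50 windows (58.0%), against 17.6% of all 27305 windows and 23.1% of those of protein-coding genes. By base composition the members lay near other protein-coding genes, with a median GC content of 62.0% against 63.0%. The E-box CACGTG was in 12.0% of member windows and 8.88% of protein-coding ones, AAGATGGC (a YY1 sequence) in 10.0% and 3.97%, CCAAT in 34.0% and 36.6%, and TATAAA in 10.0% and 9.61%. All 50 windows belong to genes expressed in these cells, whereas the windows set beside them were not limited to expressed genes. Whether the ETS share is particular to these members was therefore not tested. Matches to these letters are a description of the windows and not sites of binding.

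The 120 bases before the RefSeq start of the 2 subunits of the 1-methyladenosine methyltransferase are shown as an example of such windows, with the ETS core on either strand in capitals. TRMT6 is chr20:5950534-5950653 on the minus strand and TRMT61A chr14:103529076-103529195 on the plus strand:
TRMT6: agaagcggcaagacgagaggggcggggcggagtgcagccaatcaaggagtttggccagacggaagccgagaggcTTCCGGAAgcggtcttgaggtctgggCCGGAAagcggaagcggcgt
TRMT61A: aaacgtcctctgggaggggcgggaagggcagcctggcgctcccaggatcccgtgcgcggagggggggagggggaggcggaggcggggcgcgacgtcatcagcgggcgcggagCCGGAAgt
TRMT6 holds 3 matches, of which 2 overlap on opposite strands, and TRMT61A holds 1. A divergent neighbour, a gene on the other strand that starts within 1000 bases, was found for 14 of the 59 genes (23.7%) and for 8.51% of 19942 protein-coding genes. The latter were likewise not limited to genes expressed in these cells. TRMT6 is one of the 14 and shares its upstream region with the replication helicase gene MCM8, with 94 bases between the starts. WDR4 with NDUFV3, METTL15 with KIF18A and ALKBH1 with SLIRP are others.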

How the data were processed

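OVCAR5 libraries, 3 with METTL3 and 3 with the empty vector, were sequenced. Per the labels and the study's methods, reads were aligned to hg38 with HISAT2 and counted per gene with Subread (featureCounts, after fastp). Versions, annotation release and strand setting are not given in the sources used here. The labels describe a stranded kit and paired reads, the methods another kit and single reads. The values deposited by the authors are raw counts, neither normalized nor filtered. In the 6 libraries, 67.6% to 70.5% of counts from 1 to 20 were even, so halved counts were also tested.

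Identifiers were matched without version to GENCODE release 44, which named 60463 rows and left 186 unnamed. In R 4.3.3, edgeR 4.0.16 (filterByExpr, TMM, robust quasi-likelihood fit, Benjamini-Hochberg) was run on all 6 libraries and 22038 genes. TPM used exonic union length. Shared sequence was counted as the share of 50-base words of a gene's longest transcript that occur in GENCODE transcripts of other genes. Fits were tested on simulated data. Precision followed from spread between libraries, since member counts were at least 242.

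The members, lists and tests were chosen with earlier results of these data known. The study used DESeq2, its version not given in the sources used here. At the same threshold the paper reports many more changed genes for this comparison than the 280 that DESeq2 called here on 6 libraries. The cause of that difference was not tested. Alternatives were DESeq2 (here version 1.42.0), other scaling and filters, an adjusted p under 0.01, the replicate number as a block, GC and length trends removed with splines (5 degrees of freedom), single libraries left out, and replicates 2 and 3 alone. The last was repeated with DESeq2 and with the trends removed after the data were seen. Deviations of libraries with the same number from the mean of their group correlated at 0.33, 0.12 and 0.17, all over the 0.1 set for pairing, though 2 pairs with different numbers also passed (0.21 and 0.13). The pairing comes from the values, not from the labels.

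Genes given with values were members whose groups did not overlap, the 5 largest changes each way, the 5 highest and 5 lowest levels, members called by replicate number (0) or on replicates 2 and 3 (10), and 7 known pairs, 37 genes in all. Those named outside that rule were chosen after their values were seen.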

Additional observations from a re-analysis of the deposited data

How the results depend on the processing

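No member was called on 6 libraries under any scaling, filter, block, trend removal or left-out library tried, with DESeq2, or at an adjusted p under 0.01. On replicates 2 and 3, 10 members passed in edgeR, 10 in DESeq2 and 11 with GC and length trends removed, with 3362, 3233 and 4565 of all genes. Calls over all genes otherwise went from 0 to 280 with DESeq2, 560 without the filter, 1 with the trends removed, 22 with those and the replicate block, and from 0 to 367 without 1 library (367 without vector control replicate 1). Members with an unadjusted p under 0.05 numbered 4 without the filter, 4 with the trends removed, 6 with the replicate block and the trends removed, 13 on replicates 2 and 3 (12 with DESeq2, 19 with the trends removed), and 1 to 8 without 1 library. The replicate block alone left that number at 2 (11.3% of all genes) and changed no other call. Without 1 library, 4.15% to 16.2% of all genes had an unadjusted p under 0.05. For the other settings that share is not given here, so their larger numbers are not read as a result about the members. Members that differed with the replicate number were 1 without the filter, 1 with the replicate block and the trends removed, and 1 to 33 without 1 library. In the fits without 1 library, its replicate number rested on a single library, so those counts are not read as an effect of the replicate number. The median log2 fold change of the members was -0.084 with the replicate block and lay between -0.14 and -0.003 without 1 library. With at least 10 counts in every library, 19 members were higher and 40 lower.

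Over 37 genes and 12 settings that kept whole replicate numbers, 385 log2 fold changes kept their sign and call, 22 kept their sign and became called, and 37 changed sign. The sign held for 29 genes there and for 27 when each library was also left out. Signs changed in 8 genes whose value over 6 libraries lay between -0.105 and 0.02. THUMPD1 became 0.009 with DESeq2 and RLE size factors, 0.015 with no filter, with at least 10 counts in every library and with halved counts, 0.06 with the trends removed, 0.016 with the replicate block and 0.083 with the block and the trends removed. METTL8 became 0.007 with DESeq2 and RLE size factors, 0.012 with at least 10 counts and with halved counts, and 0.013 with no filter. NAT10 became 0.002 with at least 10 counts and 0.001 with halved counts, and METTL2A became -0.009 with the trends removed. On replicates 2 and 3 in edgeR, with the trends removed and in DESeq2, in that order, ALYREF was at 0.083, 0.055 and 0.091, FTSJ3 at 0.159, 0.185 and 0.167, METTL2B at 0.038, 0.049 and 0.047, METTL8 at 0.258, 0.248 and 0.267, NAT10 at 0.017, 0.038 and 0.025, THUMPD1 at 0.208, 0.223 and 0.216 and TRMT11 at 0.127, 0.149 and 0.135. Without 1 library, log2 fold changes ranged from -0.093 to 0.309 for METTL2A, -0.055 to 0.023 for METTL2B, -0.079 to 0.159 for METTL8, -0.06 to 0.191 for NSUN2, -0.081 to 0.027 for ALYREF, -0.175 to 0.039 for TRMT11, -0.074 to 0.09 for NAT10, -0.091 to 0.207 for THUMPD1, -0.131 to 0.055 for FTSJ3 and -0.47 to 0.126 for ADARB1. The cause of these changes was not tested. Every member had at least 242 counts in each library, and the precision of a fold change rested on 3 libraries a group.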
